A study of Homo sapiens with 117 samples.

Results

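CTCF binding after DNA double-strand breaks (DSBs) was compared between IDH1 R132H cells that overexpressed the catalytic domain of TET1 (TET1 CD) and those that overexpressed its mutant form (TET1 dCD). The sites described are those found among the 20000 strongest CTCF peaks of both lists of one construct and of neither list of the other. A peak's strength is its fold enrichment, the reads at its summit over the background of its own list. Peaks that shared at least 1 bp were merged. The 4 lists gave 23908 merged sites, of which 2276 were in both TET1 CD lists only (9.52%), 2143 were in both TET1 dCD lists only (8.96%) and 15849 were in all 4 lists. The other 3640 sites were in other combinations of the lists.

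The cells are DIvA cells. This line was made from the osteosarcoma line U2OS, and it expresses AsiSI, a restriction enzyme, joined to part of the estrogen receptor. With 4-hydroxytamoxifen (4-OHT, 300 nM for 4 h) the enzyme enters the nucleus and cuts the genome at its sequence GCGATCGC. Both groups compared expressed IDH1 R132H, both were treated with 4-OHT (+DSB), and each has 2 peak lists. The series holds 24 CTCF peak lists in 8 groups that were analysed here, and the other groups are IDH1 WT and IDH1 R132H cells without a TET1 construct and the 2 constructs without 4-OHT (−DSB). The constructs were overexpressed in cells that keep their own TET1 gene. Peaks over the coding exons of TET1, which could come from the construct's own DNA, were absent from both TET1 CD +DSB lists and from TET1 dCD +DSB replicate 1, and the list of TET1 dCD +DSB replicate 2 held 1 such peak with a fold of 2.31, so the construct could not be checked from the peaks.

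CTCF is a zinc-finger protein that binds insulators and many promoters and, with cohesin, sets the borders of chromatin loops. Its binding at some sites is blocked by methylation of the CpGs they contain. TET1 oxidises 5-methylcytosine, a step on the way to the removal of DNA methylation, and it is one of the enzymes that are inhibited by D-2-hydroxyglutarate, the product of IDH1 R132H. Promoters rich in CpG are mostly unmethylated in dividing cells, whereas the satellite repeats of centromeres are as a rule methylated. Against this background, the comparison asks how the CTCF sites of cells with active TET1 differ from those of cells with the mutant form in their place, their CpG content and their sequence.

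The 2 groups of sites lay in different parts of the genome, as 120 bp around the summit of a few of them show. The sequences are given 5′ to 3′ on the + strand of hg38, and capitals mark each CpG. The first 2 are promoters of TET1 CD only, chosen as strong examples of that group. They lie at chr17:75896528-75896647, 363 bp from the start of TRIM65, a gene for a ubiquitin ligase, and at chr14:71932304-71932423, 65 bp from the start of RGS6, a regulator of G-protein signalling. They hold 17 and 19 CpGs.
TRIM65: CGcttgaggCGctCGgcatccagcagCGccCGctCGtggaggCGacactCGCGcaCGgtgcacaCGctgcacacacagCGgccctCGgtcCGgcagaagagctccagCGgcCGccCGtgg
RGS6: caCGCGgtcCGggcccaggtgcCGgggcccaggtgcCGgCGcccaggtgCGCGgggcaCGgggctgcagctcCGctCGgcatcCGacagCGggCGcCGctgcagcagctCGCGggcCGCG

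The next 3 sequences are promoters of TET1 dCD only. The windows at chr3:138609488-138609607, 476 bp from the start of FAIM, an inhibitor of apoptosis, and at chr12:23949693-23949812, 83 bp from the start of SOX5, a transcription factor, are mostly runs of CT. The window at chrX:135768198-135768317 lies 67 bp from the start of CT45A3, a member of a family of cancer/testis antigens with near-identical copies on the X chromosome.
FAIM: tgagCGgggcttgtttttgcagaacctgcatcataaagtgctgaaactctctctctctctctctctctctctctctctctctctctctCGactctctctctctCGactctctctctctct
SOX5: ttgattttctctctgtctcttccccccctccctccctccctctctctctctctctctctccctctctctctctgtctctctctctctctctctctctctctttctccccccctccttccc
CT45A3: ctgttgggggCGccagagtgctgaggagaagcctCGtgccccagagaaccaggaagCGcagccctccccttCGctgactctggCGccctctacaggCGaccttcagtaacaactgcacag

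The first sequence below stands for the largest share of the TET1 dCD only sites, those in repeated sequence far from genes. It lies at chr10:40634174-40634293, 1999 kb from the nearest start of a protein-coding gene, and holds a CENP-B box, the sequence that the centromere protein CENP-B binds in alpha satellite DNA. Its raw fold was 53.4 and 50.4 in the TET1 dCD lists and 25.2 and 23.8 in the TET1 CD lists. The second is the promoter of INTS15 at chr7:6589862-6589981, a strong site of all 4 lists with 20 CpGs.
CENP-B box site 1: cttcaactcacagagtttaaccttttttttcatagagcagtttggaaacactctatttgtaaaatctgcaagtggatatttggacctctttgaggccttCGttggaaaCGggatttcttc
INTS15: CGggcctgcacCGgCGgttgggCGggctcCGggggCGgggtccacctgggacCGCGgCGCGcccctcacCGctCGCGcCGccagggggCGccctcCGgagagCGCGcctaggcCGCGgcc

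The lists themselves differed in several ways. The TET1 CD lists held 111558 and 115419 peaks and the TET1 dCD lists 503609 and 448059. The shortest peak, which by default follows the fragment length that the peak caller estimates, was 194 bp in both TET1 CD lists and 119 and 118 bp in the TET1 dCD lists. The reads behind the lists, estimated from the steps between fold values, were 34.6 M and 41.7 M for TET1 CD and 27.9 M and 26.6 M for TET1 dCD. The weakest of the 20000 peaks had a fold of 29.3 and 30.05 in the TET1 CD lists and of 14.4 and 14.3 in the TET1 dCD lists, so raw folds below are values read within each list, and a difference between constructs is taken from ranks or from quantile-normalized values.

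The 2 TET1 CD lists differed by less than counting noise. At shared summits their reads differed by 0.616 times what counting alone gives, and they were counted as 1 sample. The 2 TET1 dCD lists differed by 1.04 times counting noise (chi-square p = 0.00106 over 12452 summits) and were kept as 2 samples. By the same measure, the list labelled TET1 dCD −DSB replicate 3 differed from the TET1 CD +DSB lists by 0.955 and 0.922 times counting noise, which is within it, and from the other lists of its own label by 5.24 and 5.45 times. It shared 96.5% of the 20000 strongest peaks of TET1 CD +DSB replicate 1, beside 97.5% shared between the TET1 CD +DSB lists. The peak names inside the files give each list a run name. They name the TET1 CD +DSB lists as runs 3 and 4 of TET1 CD with 4-OHT. Replicates 1 and 2 of the label TET1 dCD −DSB are named as runs 1 and 2 of TET1 CD with 4-OHT. The list labelled TET1 dCD −DSB replicate 3 is named as run 3 of TET1 dCD without 4-OHT, so its run name and its label give the same group. The lists of IDH1 WT −DSB and IDH1 R132H −DSB carry each other's run names. The labels were followed here. The labels do not say that replicates came from separate cultures, so the p-values below measure only the spread between these samples, which may be technical.

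Promoters were more frequent among the TET1 CD only sites than among the TET1 dCD only sites. A promoter is taken here as a summit within 1 kb of the start of a protein-coding gene. These shares describe the sites as they were chosen and carry no test. Of the TET1 CD only sites 435 were promoters (19.1%), of the TET1 dCD only sites 34 (1.59%), and of the sites in all 4 lists 10.1%. The share outside protein-coding genes was 39.5% for TET1 CD only, 82.9% for TET1 dCD only and 51.1% for all 4 lists. The median distance to a start was 25.9 kb, 907 kb and 26.7 kb, so that TET1 CD only sites lay at about the distance of the sites common to all lists, and TET1 dCD only sites much further away.

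CpG content did not rise or fall evenly between the groups. The mean number of CpGs in the 200 bp around the summit was 6.48 for TET1 CD only, 3.98 for TET1 dCD only and 5.99 for all 4 lists. The median was 2 for TET1 CD only and 3 for the other 2 groups. The TET1 CD only sites held more sites at both ends of the range. Sites with 0 CpG made up 19.4% of TET1 CD only, 4.67% of TET1 dCD only and 8.45% of all 4 lists. Sites with 15 or more CpGs made up 18.7%, 2.38% and 11.7%. Away from promoters the mean of the TET1 CD only sites was 3.17, below the 3.92 of TET1 dCD only and the 4.81 of all 4 lists, and at promoters it was 20.5, against 7.62 and 16.6.

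**Figure D1:**
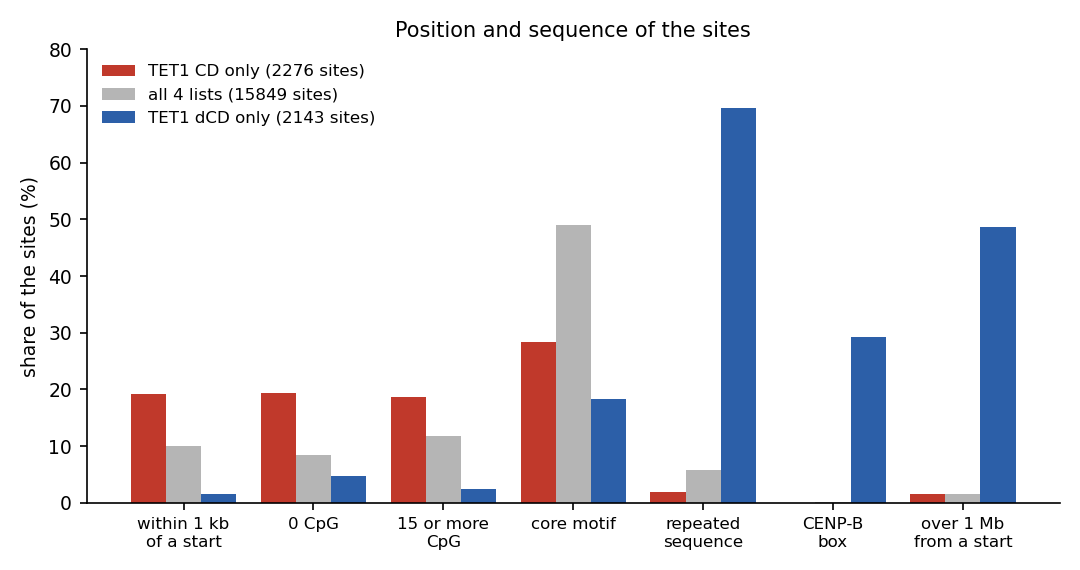
Bars give the share of sites (%) with each feature on the x axis, for TET1 CD only (red), all 4 lists (grey) and TET1 dCD only (blue). Promoters and both extremes of CpG content stand highest in TET1 CD only, and 69.6% of the TET1 dCD only sites lie in repeated sequence.

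Read by CpG content, the TET1 CD only sites took 18.6% of the merged sites with 0 CpG, 4.83% of those with 6 to 9 CpGs and 16.6% of those with 15 or more. The TET1 dCD only sites had their highest share, 15.7%, at 3 to 5 CpGs and their lowest, 1.99%, at 15 or more. The shares of the 2 groups were alike at 10 to 14 CpGs, with 6.01% and 5.94%. At a distance of up to 100 bp from a start the TET1 CD only sites were 18.9% of the merged sites, from 1 to 10 kb they were 9.36%, and beyond 100 kb 7.42%. The TET1 dCD only sites went the other way, with 2.07%, 3.49% and 22.8%.

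**Figure D2:**
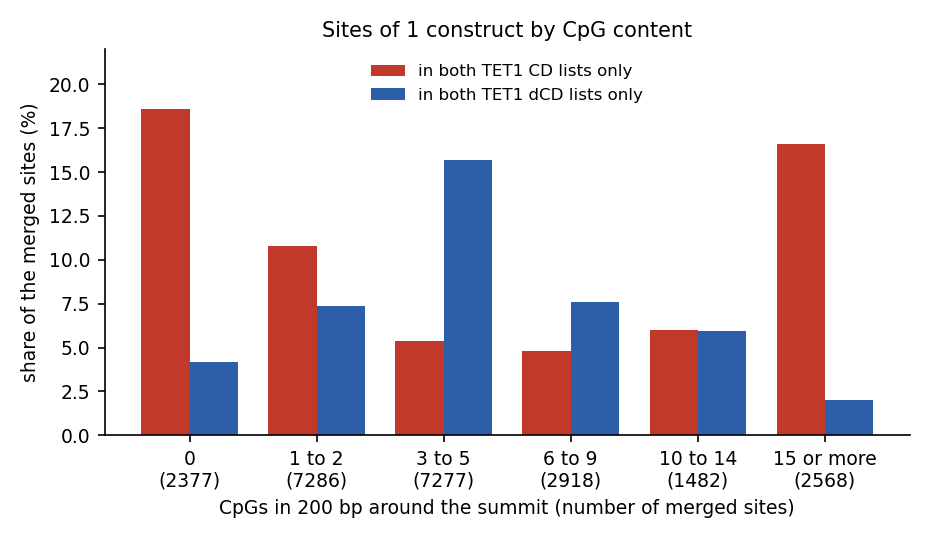
Bars give the share of the merged sites (%) that were TET1 CD only (red) or TET1 dCD only (blue), by the number of CpGs in the 200 bp around the summit, with the number of merged sites in brackets. The red bars are highest at 0 CpG (18.6%) and at 15 or more (16.6%), and the blue bars at 3 to 5 CpGs (15.7%).

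Repeated sequence held more of the TET1 dCD only sites than of the TET1 CD only sites. A site was called repeated when the median of 5 stretches of 32 bases around its summit was found more than once in chromosomes 1 to 22 and X. This held for 1491 of the TET1 dCD only sites (69.6%), for 42 of the TET1 CD only sites (1.85%) and for 5.70% of the sites in all 4 lists. With 10000 peaks per list the shares were 33.1% and 1.77%. At least 10 copies were found for 60.1%, 0.22% and 0.934%. A CENP-B box, searched by its fixed letters on either strand within the 200 bp, was present at 628 of the TET1 dCD only sites (29.3%), at 0 of the TET1 CD only sites, at 0.107% of the sites in all 4 lists and at 4.36% of all merged sites. Sites over 1 Mb from any start of a protein-coding gene were 48.7% of TET1 dCD only, 1.49% of TET1 CD only and 1.52% of all 4 lists. The TET1 dCD only sites took 21.2% of the merged sites of chromosome 10, 18.5% of those of chromosome 19 and 16.9% of those of the X chromosome, and 2.63% of those of chromosome 6.

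A second kind of simple sequence was noticed in the printed windows and counted afterwards. A run of CT repeated 10 times, on either strand, was present at 41 of the TET1 dCD only sites (1.91%), at 2 of the TET1 CD only sites (0.0879%) and at 0.364% of all merged sites. It was present at 8 of the 34 promoters of TET1 dCD only and at 0 of the 435 of TET1 CD only. Among the strongest TET1 dCD only sites, chosen here after their values were seen, those in introns of CCDC200 had such a run and 13 copies. The strongest of them, at chr17:43233019-43235432, had folds of 73.1 and 71.6 in the TET1 dCD lists, at ranks 434 and 527, and of 12.0 in both TET1 CD lists, at ranks 30420 and 31015.

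The core of the CTCF motif, searched as 12 letters on either strand within 50 bp of the summit, was present at 28.4% of the TET1 CD only sites, 18.3% of the TET1 dCD only sites, 48.9% of the sites in all 4 lists and 40.9% of all merged sites. Without repeated sequence, 2234 TET1 CD only sites, 652 TET1 dCD only sites and 14946 sites of all 4 lists were left. The core was then present at 28.1% of TET1 CD only, 50.5% of TET1 dCD only and 48.7% of all 4 lists. The promoter share without repeated sequence was 19.2%, 3.07% and 10.5%, and the mean CpG number was 6.44, 4.65 and 5.95. In sequence found once, the TET1 dCD only sites thus came close to the common sites in the core motif and stayed below them in promoters.

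When the 20000 strongest peaks were taken only from sequence found once in the genome, an alternative chosen after the data were seen, 1289 TET1 CD only sites and 1156 TET1 dCD only sites were found. Their promoter shares were 21.8% and 4.24% and their mean CpG numbers 6.93 and 4.44.

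Membership was a matter of rank rather than of presence. Of the TET1 CD only sites 99.8% also had a weaker peak in each TET1 dCD list, at a median rank of 26523 in replicate 1 and 27057 in replicate 2. Of the TET1 dCD only sites 99.0% and 99.3% had a weaker peak in the TET1 CD lists, at median ranks of 32034 and 32040. Just outside the limit, at the start of ZFP36L1, which encodes an mRNA decay factor, the ranks were 6463 and 8955 in the TET1 CD lists and 20143 and 20078 in the TET1 dCD lists. Just inside it, the TET1 CD only sites reached rank 20000 in replicate 1 and 19998 in replicate 2. A site with a rank of at most 10000 in both lists of its own construct and beyond 30000 in both of the other was found 0 times for TET1 CD and 20 times for TET1 dCD, and 0 of these 20 were promoters.

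The promoters of TET1 CD only with the highest fold were CpG rich. At N4BP2, 33 bp from the start, the folds were 70.3 and 65.4 in the TET1 CD lists and 12.6 and 11.1 in the TET1 dCD lists, with ranks of 3848 and 4762 against 22309 and 24549. At TRIM65, whose sequence is printed above, the folds were 65.1 and 65.6 against 12.6 and 9.71. At RGS6 they were 64.8 and 58.6 against 11.7 and 12.9. The other 7 of the 10 were SMIM13, STAU2, PTP4A2 (a tyrosine phosphatase), L3HYPDH, ZFP36L1, ELOVL7 (a fatty acid elongase) and SH3BP5. The 10 promoters had 23 to 32 CpGs in 200 bp, and each was in sequence found once.

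The promoters of TET1 dCD only with the highest fold were of another kind. At STX6, a gene for a syntaxin of membrane traffic whose start lies 41 bp from the summit, the folds were 36.8 and 47.1 in the TET1 dCD lists and 16.3 and 15.5 in the TET1 CD lists. At FAIM they were 28.3 and 38.4 against 8.89 and 10.3, and at SOX5 32.7 and 26.8 against 12.3 and 15.02. STX6, FAIM and SOX5 had a run of CT. CT45A3, CT45A7, CT45A8 and CT45A9 had 7 or 8 copies, and CGB1 (a chorionic gonadotropin beta gene), SCGB1C2 and DMRTC1B had 2, so reads cannot be assigned with certainty to one copy. At SCGB1C2 the raw folds of the TET1 CD lists, 27.8 and 29.3, were not below those of the TET1 dCD lists, 26.9 and 26.8, and the site was TET1 dCD only by its ranks of 12128 and 11997 against 20628 and 20356.

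Gene lists were read for starts with a site of one construct, beside all 19962 protein-coding genes, of which 2.39% had a TET1 CD only site and 0.18% a TET1 dCD only site at a start. Of 15 end-joining genes 2 had a TET1 CD only site, POLM (a DNA polymerase of end joining) and RIF1 (which opposes end resection). Of 24 genes of homologous recombination 0 had one. Of 13 CTCF and cohesin genes 2 had one, CTCF itself and NIPBL, the cohesin loader. Of 19 p53 targets it was MDM2, of 84 ribosomal protein genes RPL7 and RPS19, of 39 HOX genes HOXA4 and of 53 clustered protocadherins PCDHB8. Of 76 core histone genes 0 had one. The only TET1 dCD only site at these lists was at PCDHGB7, another clustered protocadherin.

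The same comparison was made site by site, with the folds quantile normalized over all lists and tested with limma on the log2 scale. The spread was estimated from all 8 groups, with lists that differed by less than counting noise counted as 1 sample, so that TET1 CD +DSB entered as 1 sample and TET1 dCD +DSB as 2. The lone TET1 CD sample is assumed to vary like the others. Of 23649 sites with a peak in every list, 2186 passed (9.24%), of which 1193 were higher with TET1 CD (5.04%) and 993 were higher with TET1 dCD (4.2%). The TET1 CD only sites had 601 of the former and 0 of the latter, and the TET1 dCD only sites 0 and 502, which follows from how they were chosen. Among sites in all 4 lists, 383 were higher with TET1 CD (2.42%) and 333 with TET1 dCD (2.10%).

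These calls rested on few samples, and which construct had more of them depended on the fit. With median centring in place of quantile normalization there were 5868 calls, 2774 higher with TET1 CD and 3094 with TET1 dCD. Without TET1 dCD +DSB replicate 1 there were 593 calls (446 higher with TET1 CD and 147 with TET1 dCD), and without replicate 2 there were 429 (334 and 95). With the folds fitted on the 9 TET1 lists alone, the limma count at an adjusted p of 0.05 was 0, with 3988 sites at an unadjusted p under 0.05. Without the list labelled TET1 dCD −DSB replicate 3 there were 5896 calls (2693 and 3203), and without the 9 lists whose run names give another group there were 4122 (1667 and 2455), both chosen after the data were seen.

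Shares of calls, here and near AsiSI sequences below, come from the same folds that ranked the peaks. They describe the same contrast as the choice of sites and give no separate support. By kind of site, promoters were higher with TET1 CD in 11.2% of 2339 tested and with TET1 dCD in 1.20%, with a median log2 difference (TET1 CD minus TET1 dCD) of 0.34 beside 0.01 over all sites. Sites with 15 or more CpGs were higher with TET1 CD in 9.59% and with TET1 dCD in 0.858%, and sites with 0 CpG in 8.40% and 1.99%. Repeated sequence went the other way, with 0.382% higher with TET1 CD, 17.0% with TET1 dCD and a median of -1.27. Sites with a CENP-B box had a median of -1.50 and were higher with TET1 dCD in 199 of 931, and with TET1 CD in 0. Of 69 sites with a run of CT, 39 were higher with TET1 dCD and 1 with TET1 CD. When only sites in sequence found once were fitted, also chosen after the data were seen, 903 were higher with TET1 CD and 1149 with TET1 dCD.

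**Figure D3:**
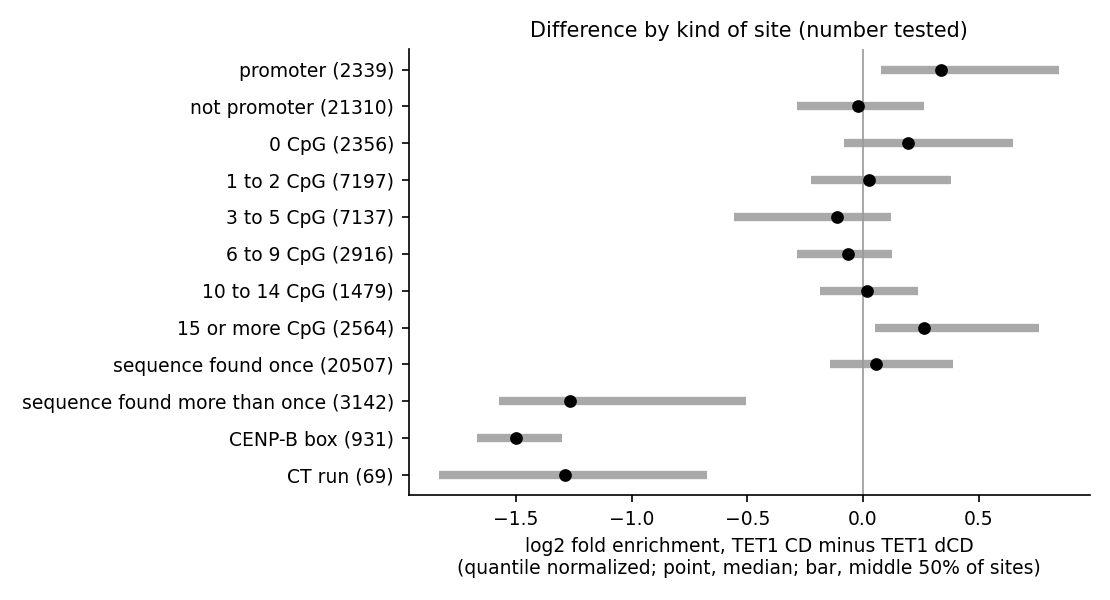
Points give the median and bars the middle 50% of sites of the log2 fold enrichment, TET1 CD minus TET1 dCD, after quantile normalization, by kind of site with the number tested in brackets. Promoters (0.34) and sites with 15 or more CpGs (0.26) lie to the right of 0, and repeated sequence (-1.27), CENP-B box sites (-1.50) and runs of CT (-1.29) to the left. The folds are those that ranked the peaks, so the figure is a description.

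The promoters that differed most in favour of TET1 CD were led by HOXA4, a homeobox gene of anterior patterning. Its folds were 50.8 and 51.8 in the TET1 CD lists and 5.38 and 7.86 in the TET1 dCD lists, with a log2 difference of 2.28 ± 0.37 (SE of the limma fit). At CTCF, which encodes the protein measured, the folds were 43.6 and 50.8 against 7.62 and 5.55 (2.15 ± 0.50). At GCH1, the first enzyme of tetrahydrobiopterin synthesis, they were 30.1 and 31.6 against 3.59 and 3.697 (2.06 ± 0.20). The 10 are all TET1 CD only sites, chosen on the same contrast, so their values are a description and no p is given.

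The other promoters in this group were ARHGAP28, SGPP1 (a sphingosine-1-phosphate phosphatase), USP4 (a deubiquitinase), SDK2 (an adhesion protein), KAT6B (a histone acetyltransferase), SATB1 (a chromatin organiser) and ZFAND4, with log2 differences of 2.02 to 2.26. SDK2 and KAT6B lay 0.285 and 1.59 kb from an AsiSI sequence. Of 87 tested sites at gene list members 8.05% were called higher with TET1 CD and 0 with TET1 dCD, a smaller share than the 11.2% of all promoters. They included DNMT3A, a de novo DNA methyltransferase (0.79 ± 0.20, limma adjusted p = 0.0466), a call lost with median centring (0.63, limma adjusted p = 0.060). The others named here were H4C2 (0.68), POLM (1.41), RPL7 (1.63), CTCF and HOXA4. The median difference was 1.41 for the end-joining genes (3 sites), where POLM and RIF1 are TET1 CD only sites, chosen on this contrast. It was 0.49 for the core histones (6 sites), 0.31 for homologous recombination (4 sites) and 0.31 for CTCF and cohesin (7 sites). For the p53 targets (6 sites) it was 0.21 and for the HOX genes (6 sites) 0.06. The ribosomal protein genes (24 sites) had 0.08 and the clustered protocadherins (28 sites) -0.02, beside 0.34 for all promoters.

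The promoters that differed most in favour of TET1 dCD were 6 CT45A genes, GABRA2, FAIM, STX6 and SLITRK3, all of them TET1 dCD only sites and likewise described without a p. At GABRA2, a subunit of the GABA-A receptor, the folds were 5.45 and 5.26 in the TET1 CD lists and 22.4 and 22.2 in the TET1 dCD lists (-1.96 ± 0.36). At FAIM the difference was -1.85 ± 0.29. CT45A6 had the largest difference, -1.998 ± 0.27, with 8 copies of its sequence. GABRA2, FAIM, STX6 and SLITRK3, which encodes a synaptic adhesion protein, each had a run of CT. Of the 25 called sites under the naming rule, 25 kept their direction in each alternative that could be computed, 24 passed with median centring, 7 passed without TET1 dCD +DSB replicate 1, 5 without replicate 2 and 0 in the fit on the 9 TET1 lists.

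In the 20 lists that played no part in choosing them, the TET1 CD only sites were among the 20000 strongest peaks in 15.4% to 84.8% of cases, with a median of 42.4%, and the TET1 dCD only sites in 8.26% to 84.6%, with a median of 36.4%. Of these lists, 11 held a larger share of the TET1 CD only sites and 9 a larger share of the TET1 dCD only sites. In sequence found once the medians were 42.6% and 66.2%, and 4 lists held a larger share of the TET1 CD only sites and 16 of the TET1 dCD only sites. Without the 9 lists with other run names the medians were 43.0% and 33.9% over 11 lists, of which 7 and 4 held the larger share of each, and without the list labelled TET1 dCD −DSB replicate 3 they were 41.9% and 37.9% over 19 lists, of which 10 and 9 did. TET1 CD −DSB, the same construct without breaks, held 43.0% and 41.9% of the TET1 CD only sites and 33.9% and 34.8% of the TET1 dCD only sites. Replicates 1 and 2 of the label TET1 dCD −DSB held 34.8% and 35.1% of the former and 60.7% and 62.3% of the latter, and the list labelled replicate 3 held 84.8% and 8.26%. Without constructs, IDH1 WT +DSB held 51.6% to 60.3% and 18.7% to 32.4%, IDH1 WT −DSB 15.4% to 27.4% and 59.9% to 84.6%, IDH1 R132H −DSB 44.2% to 51.1% and 25.7% to 37.9%, and IDH1 R132H +DSB 17.4% to 25.2% and 59.2% to 79.7%. Of the TET1 CD only sites 90 were in none of these 20 lists and 25 in each of them, and of the TET1 dCD only sites 76 and 44.

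**Figure D4:**
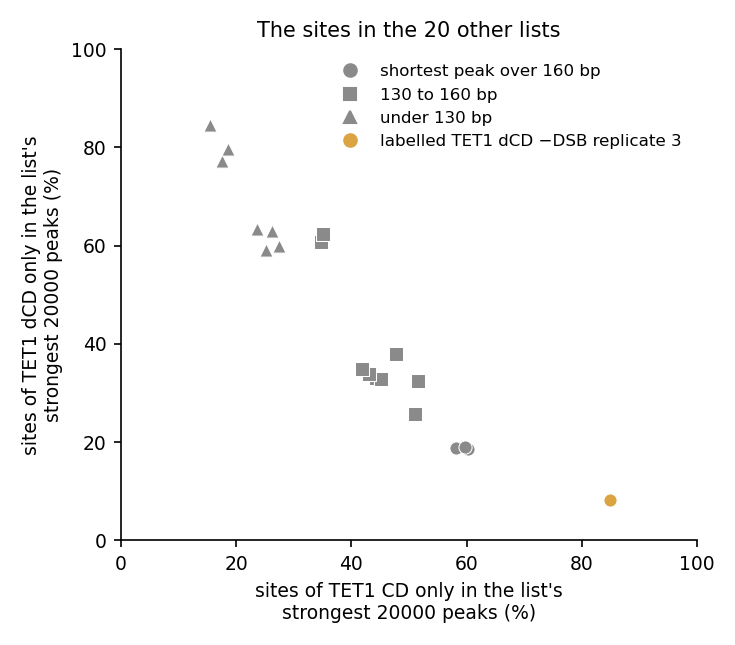
Each point is 1 of the 20 lists not used to choose the sites, placed by the share (%) of the TET1 CD only sites (x axis) and of the TET1 dCD only sites (y axis) among its 20000 strongest peaks, with symbols for the shortest peak of the list. The shares run from 15.4% and 84.6% at the upper left to 84.8% and 8.26% at the lower right, the list labelled TET1 dCD −DSB replicate 3.

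The same order was seen in the shortest peak of the lists. Over the 6 lists with a shortest peak over 160 bp, 5.28% to 5.56% of the strongest peaks lay in repeated sequence and 10.9% to 13.3% were promoters. Over the 9 lists from 130 to 160 bp the shares were 6.44% to 10.6% and 9.46% to 11.1%, and over the 9 lists under 130 bp 8.90% to 15.3% and 8.72% to 9.89%. Without the lists with other run names, 3 lists were left from 130 to 160 bp, with 7.04% to 7.33% and 9.84% to 11.1%, and the ranges of the lists over 160 bp and under 130 bp were as before. Without the list labelled TET1 dCD −DSB replicate 3, the 5 lists over 160 bp gave 5.28% to 5.53% and 11.1% to 13.3%. The TET1 CD +DSB lists had the longest shortest peak of the series and the TET1 dCD +DSB lists the 2 shortest. Since each group lies at one end, the construct and this property of the lists cannot be told apart here, and the part of fragment length or library preparation in the sites of either group was not tested.

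**Figure D5:**
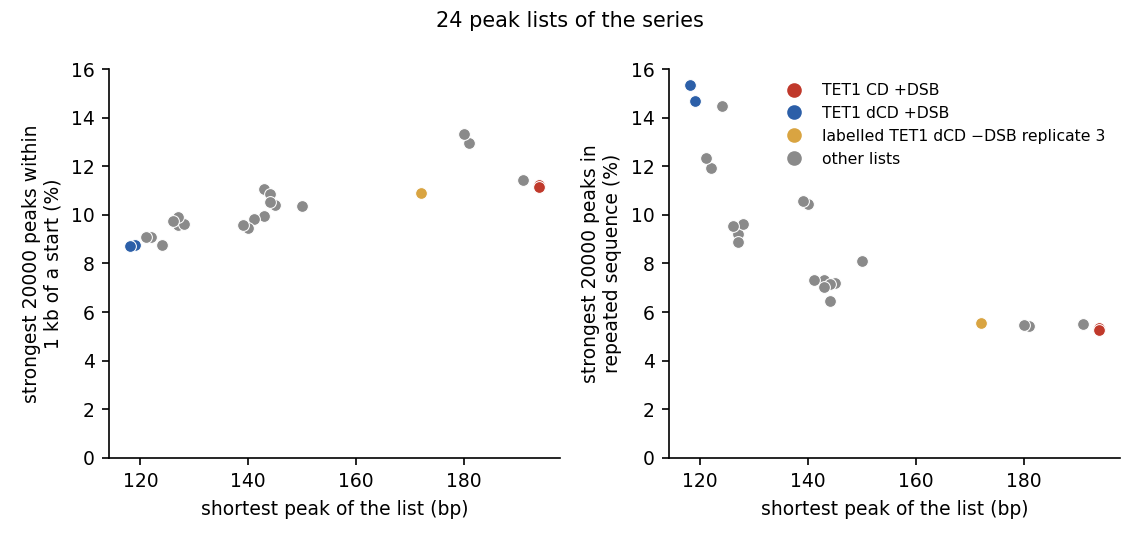
Each point is 1 of the 24 lists, with its shortest peak (bp) on the x axis and, on the y axes, the share (%) of its 20000 strongest peaks that are promoters (left) or lie in repeated sequence (right). The TET1 CD +DSB lists (red, 194 bp) and the TET1 dCD +DSB lists (blue, 118 and 119 bp) lie at opposite ends of a series that the other lists fill.

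At the 20 promoters with the largest differences, the groups without a construct were set beside the constructs by their medians after quantile normalization. These promoters were chosen on the contrast between the constructs. The counts are a description, since the same count was not made over all promoters. Of the 10 in favour of TET1 CD, IDH1 WT +DSB lay nearer to TET1 CD and IDH1 R132H +DSB nearer to TET1 dCD at 9, and at ZFAND4 both lay nearer to TET1 CD. Of the 10 in favour of TET1 dCD, IDH1 WT +DSB lay nearer to TET1 CD and IDH1 R132H +DSB nearer to TET1 dCD at 4, and at the 6 CT45A genes both lay nearer to TET1 dCD. Some placements were near ties. At ZFAND4 IDH1 R132H +DSB, at 4.335, lay close to midway between TET1 CD at 5.335 and TET1 dCD at 3.311. At CT45A3 IDH1 WT +DSB, at 4.303, lay close to midway between 3.429 and 5.127. On the quantile-normalized log2 scale, GCH1 was at 4.23 and 4.26 with TET1 CD +DSB and at 2.17 and 2.19 with TET1 dCD +DSB, and it lay between 4.71 and 5.29 in IDH1 WT +DSB and between 2.12 and 2.99 in IDH1 R132H +DSB. FAIM was at 3.39 and 3.45 with TET1 CD +DSB and at 5.10 and 5.44 with TET1 dCD +DSB, and lay between 3.66 and 4.11 in IDH1 WT +DSB and between 5.21 and 5.40 in IDH1 R132H +DSB. CT45A3 went another way. It was at 3.34 and 3.52 with TET1 CD +DSB and at 5.12 and 5.14 with TET1 dCD +DSB, and lay between 4.21 and 4.75 in IDH1 WT +DSB and between 4.62 and 4.98 in IDH1 R132H +DSB, in both cases above TET1 CD and below TET1 dCD. Without 4-OHT the genotypes lay the other way round at GCH1 and FAIM by their labels. The lists of IDH1 WT −DSB and IDH1 R132H −DSB carry each other's run names, however. Read by run name, the genotypes would lie the same way as with 4-OHT, and which reading is right was not tested. The values that follow are given by label. GCH1 lay between 2.16 and 2.75 in IDH1 WT −DSB and between 4.31 and 4.50 in IDH1 R132H −DSB. FAIM lay between 4.82 and 5.05 and between 3.70 and 4.22. The shortest peak was 143 to 191 bp in IDH1 WT +DSB and 144 to 150 bp in IDH1 R132H −DSB. It was 121 to 127 bp in IDH1 R132H +DSB and 124 to 128 bp in IDH1 WT −DSB. Its part was not tested.

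Sites in all 4 lists, which are strong in every list by how they were chosen, were also described by CpG content. At 0 CpG the median log2 ratio of TET1 CD +DSB replicate 1 over TET1 dCD +DSB replicate 1 was 0.11, at 3 to 5 CpGs -0.10, at 6 to 9 CpGs -0.15, at 15 or more CpGs 0.03 and at promoters 0.10. At 15 or more CpGs it ranged from -0.01 to 0.05 over the 4 pairs of lists. The 2 TET1 CD lists differed from each other by up to 0.06 in the same bins and the 2 TET1 dCD lists by up to 0.01. Over all tested sites, the median difference was lowest at 3 to 5 CpGs, with -0.11, beside -0.06 at 6 to 9 CpGs. Replicate 3 over replicate 1 of TET1 dCD −DSB, which carry the same label, gave medians from -0.10 to 0.05 in bins of this kind. Replicate 3 was within counting noise of the TET1 CD +DSB lists and differed from replicate 1 by 5.24 times it. These medians therefore do not measure the spread within a group.

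Over whole lists, 11.2% and 11.1% of the 20000 strongest peaks with TET1 CD were promoters and 8.75% and 8.72% with TET1 dCD, a difference of 2.44 percentage points between 1 and 2 samples (two-sided exact permutation test, p = 0.667, the smallest this design allows). The mean CpG number was 5.93 and 5.90 against 5.56 and 5.60, a difference of 0.337. In sequence found once the differences were 1.43 percentage points and 0.213.

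The sequences that AsiSI can cut were then considered. Which of them were cut in these cells is not known from the peak lists, so the values below describe sequences rather than breaks. Of 1220 AsiSI sequences on chromosomes 1 to 22 and X, 21.6% and 21.1% had one of the strongest TET1 CD peaks within 10 kb and 18.9% had one in both TET1 dCD lists, a difference of 2.5 percentage points (0.738 in sequence found once) with the same exact permutation p of 0.667. Such a peak was present in both TET1 CD lists and neither TET1 dCD list at 30 AsiSI sequences, in the reverse pattern at 5, in all 4 lists at 217 and in none at 948. The 30 include sequences 61 bp from the start of PCGF1 (a Polycomb group protein), 209 bp from KAT6B and 940 bp from NR3C1 (the glucocorticoid receptor). All sites with an AsiSI sequence within 10 kb had a median log2 difference of 0.07, and 21 of 321 were higher with TET1 CD (6.54%) and 5 with TET1 dCD (1.56%), beside 5.04% and 4.2% of all tested sites.

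DSB1 and DSB2 were taken as the AsiSI sequences nearest to where the 4C-seq primers of those names match hg38. DSB1 is the AsiSI sequence at chr1:88992913-88992920 (hg38), in an untranslated exon 47 bp from the start of RBMXL1. It had 2 sites of all 4 lists within 10 kb, of which the nearer, 5.93 kb away, had folds of 36.4 and 39.6 with TET1 CD and 25.6 and 21.7 with TET1 dCD (log2 difference -0.27 ± 0.16 after quantile normalization, the opposite direction to the raw folds, limma adjusted p = 0.253). The nearest site of one construct was a TET1 CD only site in an intron of KYAT3 19.2 kb away, with 40.2 and 36.8 against 12.1 and 12.0 (0.69 ± 0.20). Within 1 Mb of DSB1, 24 sites were tested, of which 2 were higher with TET1 CD and 1 with TET1 dCD, beside 5.04% and 4.2% of all tested sites. DSB2, at chr20:32358509-32358516 in an untranslated exon 160 bp from the start of ASXL1, had no strong peak within 10 kb in any of the 4 lists. Within 1 Mb of it 28 sites were tested, of which 0 were higher with TET1 CD and 4 with TET1 dCD, beside the same shares of 5.04% and 4.2%. The counts near DSB1 and near DSB2 are both too few for a comparison with those shares. The position that the study gives for DSB2 names no build, and it was not settled that it means the sequence near ASXL1.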

How the data were processed

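CTCF ChIP-seq peak lists of 24 samples in 8 groups were used. According to the study's methods and the submitters' processing notes, the authors mapped reads to hg38 with Bowtie2 and ran MACS2 separately for each sample, with input as control. The sources give different versions of both tools. The deposited fold values are a ratio of summit reads to 1 background level per list, and the deposited −log10 q values follow from the same reads. Neither is normalized between lists, and the reads per list were estimated from the fold steps with an effective genome of 2.7 Gb.

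Peaks on chromosomes 1 to 22 and X were ranked by fold, and genes were taken from GENCODE release 44. Lists of a group were counted as 1 sample where reads at summits of 20 to 50 reads, matched within 60 bp, differed by no more than counting noise, which leaves 15 samples. Log2 folds of merged sites with a peak in every list were quantile normalized and fitted with limma 3.58.1 in R 4.3.3, Benjamini-Hochberg at 0.05. No pseudocount was added. On simulated data the fit recovered 44.5% of 200 sites changed by 1 on the log2 scale and 84% of those changed by 2, with 12 and 9 false calls among 23649 sites. The false calls are to be read beside the recovered sites rather than all sites. The simulation gave each sample the spread estimated over all groups, so that assumption was not tested for the lone TET1 CD sample. List values were compared by exact permutation tests in Python 3.11.15.

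Promoters were named where they were the 10 with the highest mean fold for a construct, the 10 with the largest called difference each way, or members of the gene lists with a site of one construct. The DSB sites were also named. A gene that meets this rule is not reported here. Sites, members and gene lists were chosen with earlier results of these data known. Alternatives were other list sizes, rankings and merging rules, median centring, left-out lists and, added after the data were seen, sequence found once. Replicate 1 of IDH1 WT −DSB and the 4C-seq samples were not used here, and sequences are from the hg38 reference.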

Additional observations from a re-analysis of the deposited data

Results flagged for a closer look

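Over 18 combinations of a group of 4 lists and a measure, 2 had a list that stood apart from the other 3. Chance gives about 1 in 20 for independent lists, a rate that does not apply here. Replicates 1, 3 and 4 of IDH1 WT +DSB differed by no more than counting noise and were counted as 1 sample. Replicate 2 differed from them by 1.78 to 2.11 times it. Both flags fell on the list of IDH1 WT +DSB replicate 2. It held 32.38% of the TET1 dCD only sites among its strongest peaks, and the other 3 lists of its group held 18.66% to 19.04%. In repeated sequence lay 7.33% of its strongest peaks, against 5.425% to 5.525% in the other 3. Its shortest peak was 143 bp, and those of the other 3 were 180 to 191 bp. Whether these values are linked was not tested.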

How the results depend on the processing

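The differences between the lists and those at the named sites kept their direction in the alternatives computed. The median difference over all tested sites, 0.01, was -0.15 with median centring and -0.01 in sequence found once, and calls higher with TET1 CD outnumbered those higher with TET1 dCD as reported but not with median centring, in sequence found once, without the list labelled TET1 dCD −DSB replicate 3 or without lists with other run names. With 10000 peaks per list there were 1301 TET1 CD only and 1181 TET1 dCD only sites, with 50000 peaks 14196 and 10098, with all peaks at a −log10 q of at least 10 13858 and 5299, and with sequence found once 1289 and 1156. With 50000 peaks 98.7% of the TET1 dCD only sites lay in repeated sequence, with 10000 peaks 33.1%. Leaving out a list gave 2600 to 2934 TET1 CD only and 2268 to 2918 TET1 dCD only sites, and differences of 2.39 to 2.50 percentage points in promoter share, 0.317 to 0.356 in CpG number and 2.25 to 2.75 percentage points at AsiSI sequences. The median share of TET1 dCD only sites in other lists was 66.2% in sequence found once, and that of TET1 CD only sites 42.6%.

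Called sites (2186, with 1193 higher with TET1 CD and 993 with TET1 dCD) numbered 5868 with median centring (2774 and 3094), 9242 with every list as a sample (4680 and 4562), 0 in the limma fit on the 9 TET1 lists (0 and 0, with 3988 at an unadjusted p under 0.05), 5896 without the list labelled TET1 dCD −DSB replicate 3 (2693 and 3203) and 4122 without lists with other run names (1667 and 2455). Leaving out a list of the 2 groups gave 429 to 2508 calls, 334 to 1340 higher with TET1 CD and 95 to 1168 higher with TET1 dCD. The cause was not tested. The groups share replicate numbers, and the deviations of same-numbered lists had a correlation of 0.00425 across sites. The 2 TET1 CD lists differed by only 0.616 times counting noise, so this value cannot show whether the numbers pair the lists. With a replicate block there were 9706 calls (4995 and 4711), beside 9242 without it.

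With 1 and 2 samples the exact tests cannot pass 0.05. Depth is known only as an estimate, and inputs were not analysed here.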
